A study of Homo sapiens with 6 samples.

Results

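The genes described here are 10 subunits of activator protein 1 (AP-1) and of related dimers: JUN, JUNB, JUND, FOS, FOSB, FOSL1, FOSL2, ATF2, MAFF and MAFG. They were found as every probe of an Illumina expression array whose platform annotation gives one of these symbols, which was 14 of 47323 probes. Of the 14, 8 genes had 1 probe each, and MAFF and MAFG had 3 each. A detection filter kept 11 of the 14 for testing, with at least 1 probe for each of the 10 genes. The array names 20046 genes in all, of which 11498 were tested. The 3 probes of the family that the filter left out were 2 dim probes of MAFF and 1 of MAFG.

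AP-1 is a family of transcription factors that bind DNA only as pairs. Each subunit carries a basic region that contacts DNA and a leucine zipper through which it pairs. JUN proteins can pair with each other or, more stably, with FOS proteins or ATF2, whereas FOS proteins do not form stable pairs among themselves. JUN, FOS, FOSB and JUNB are immediate early genes, whose RNA is induced quickly by growth factors and stress and decays quickly, while JUND RNA is made steadily in many resting cells. FOSL1 and FOSL2 are later members that lack the strong activation domain of FOS, and FOSL1 is a well-known readout of ERK signalling in carcinoma cells. ATF2 binds the cyclic AMP response element and is switched on by phosphorylation by the stress kinases JNK and p38. The small MAF proteins MAFF and MAFG have no activation domain and act through partners such as NRF2 or BACH1 on antioxidant genes.

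The cells were HCT116, a human colorectal carcinoma line, expressing a short hairpin RNA (shRNA), from which cells make small RNAs that lower a matching messenger RNA. The 6 arrays formed 3 groups of 2: a non-silencing hairpin (NS shRNA), PEA15 shRNA #1 and PEA15 shRNA #2, all grown with serum and antibiotics and with no further treatment named. The product of PEA15 is known to bind the kinase ERK and keep it in the cytoplasm. The hairpin sequences, and whether a line was 1 clone or a pool, are not given in the sources used here.

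Between 41.1% and 43.0% of probes were detected on each array, and arrays of one group correlated with r from 0.994 to 0.995 across the 19781 tested probes. Arrays of different groups correlated nearly as closely, with r from 0.988 to 0.993. Levels below are background-corrected, quantile-normalized log2 signals, which compare one probe between arrays and not 1 probe with another. Of 9 epithelial and intestinal markers, 6 were detected on all 6 arrays, among them EPCAM, CDH1, KRT8 and CDX2, while CDX1, VIL1 and LGALS4 were detected on none. Of 4 leukocyte markers, PTPRC and CD3E were detected on no array, CD79A on 2 and CD68 on all 6. Of 4 fibroblast markers, COL1A2, COL3A1 and PDGFRB were detected on none and COL1A1 on all 6, and 0 of 3 endothelial markers was detected. The targeted PEA15 measured 8.97 and 9.15 under NS, 8.22 and 8.17 under shRNA 1, and 7.71 and 7.93 under shRNA 2. Its change was -0.86 ± 0.12 (log2, SE, n = 2 arrays a group) with shRNA 1, which did not pass the test over all probes (limma adjusted p = 0.149) but passed under 4 of 15 alternatives (from -0.95 to -0.70 over the 15, lowest adjusted p = 0.000306). With shRNA 2 it fell by 1.23 ± 0.12 (adjusted p = 0.00633), a call lost when either NS array, or replicate 1 of PEA15 shRNA 2, was left out (highest adjusted p = 0.079). Between hairpins its difference was -0.38, which did not pass (adjusted p = 0.129) and passed under 4 of the 15 (lowest 0.0311). The labels do not say that replicates were separate cultures, so p-values measure the spread between these arrays, which may be technical. On arrays of whole cultures, fewer cells making an RNA and less RNA per cell cannot be told apart.

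Across the 3 comparisons 1 AP-1 subunit passed the test: JUND, whose RNA was higher with shRNA 2 than with shRNA 1. FOSB and MAFF stood highest on the shRNA 2 arrays, FOSL1 and FOS on the shRNA 1 arrays, and ATF2 on the NS arrays. Each did so without overlap with the other groups, and none of these differences passed. JUN itself differed little between the groups. With shRNA 1 against NS shRNA, 0 of 11 probes of the family passed (limma), beside 0.0152% of all tested probes, every one of them higher; an unadjusted p under 0.05 was reached by 1 of 11, beside 11.4%. With shRNA 2 against NS shRNA, 0 of 11 passed (limma), beside 1.41% of all tested probes (1.03% higher and 0.379% lower), and 4 of 11 had an unadjusted p under 0.05, beside 17.7%. Between hairpins 1 of 11 passed, and it was higher, beside 2.95% of all tested probes (1.74% higher and 1.20% lower). There 4 of 11 had an unadjusted p under 0.05, beside 22.2%.

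Arrays of the groups compared did not overlap for 6 of the 11 probes with shRNA 1 against NS, where 41.9% of all tested probes did not overlap. The corresponding counts were 5 of 11 with shRNA 2 against NS, beside 49.7%, and 7 of 11 between hairpins, beside 53.3%. These shares were near those of all probes. The median log2 change over the 11 probes was 0.13 with shRNA 1 and 0.12 with shRNA 2, with 8 of 11 above 0 in each comparison, and 0.11 between hairpins, with 7 of 11 above 0. Of all tested probes 49.5%, 48.3% and 48.3% were above 0. Over all tested probes the medians were -0.0019, -0.009 and -0.0096. Both comparisons against the control use the same 2 NS arrays, so their changes are not independent of each other. The group with the highest mean was shRNA 2 for 7 of the 11 probes, shRNA 1 for 3 and NS for 1, against 35.3%, 34.2% and 30.5% of all tested probes.

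**Figure D1:**
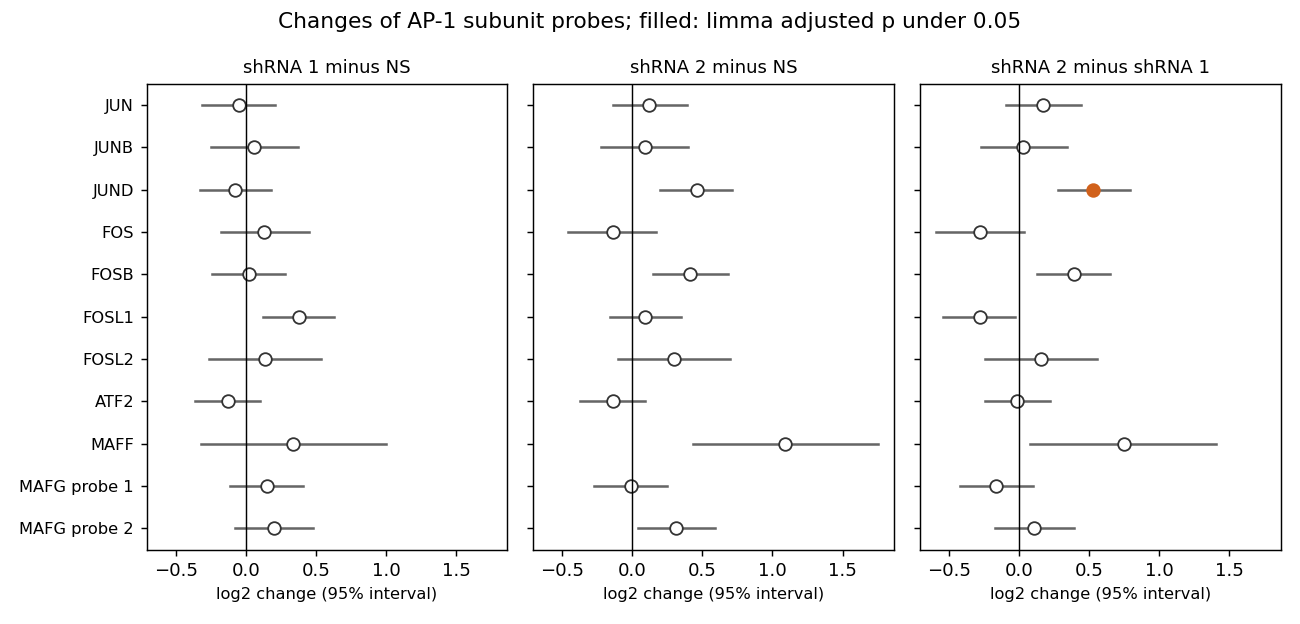
Log2 change of each tested AP-1 subunit probe in the 3 comparisons, with its 95% confidence interval from limma. The filled point is JUND between hairpins (0.53), the 1 probe with an adjusted p under 0.05; the longest intervals are those of MAFF.

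JUN, whose protein is activated through phosphorylation by JNK, measured 7.38 and 7.55 under NS, 7.40 and 7.43 under shRNA 1, and 7.51 and 7.66 under shRNA 2. The shRNA 1 arrays lay within the range of the NS arrays and below both shRNA 2 arrays, and the NS and shRNA 2 arrays overlapped. Its changes against NS were -0.05 ± 0.11 with shRNA 1 (95% confidence interval -0.31 to 0.21, limma adjusted p = 0.907) and 0.12 ± 0.11 with shRNA 2 (-0.14 to 0.39, adjusted p = 0.626). Between hairpins the difference was 0.17 (-0.09 to 0.44, adjusted p = 0.412). Neighbouring groups in the order shRNA 2, NS, shRNA 1 thus did not differ beyond the spread of the arrays. JUNB, a subunit that can oppose JUN at some promoters, measured 6.47 and 6.65 under NS, 6.75 and 6.48 under shRNA 1, and 6.73 and 6.57 under shRNA 2. All 3 groups overlapped, and the group means spanned 0.09. Its 95% confidence intervals were -0.25 to 0.37 for shRNA 1 against NS, -0.22 to 0.40 for shRNA 2 against NS and -0.27 to 0.34 between hairpins (limma adjusted p = 0.914, 0.768 and 0.906).

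JUND, the steadily made JUN gene, measured 11.87 and 11.86 under NS, 11.78 and 11.80 under shRNA 1, and 12.42 and 12.22 under shRNA 2. The raw intensities behind these levels were 3701 and 3754, then 3361 and 3770, then 5751 and 5196. Both shRNA 2 arrays lay above the other 4, and the 2 shRNA 1 arrays lay just below the NS arrays. JUND rose by 0.53 ± 0.11 from shRNA 1 to shRNA 2, a 1.45-fold difference (95% confidence interval 1.21 to 1.73, n = 2 arrays a group, limma adjusted p = 0.0485). Against NS the difference with shRNA 2 was 0.46 ± 0.11, or 1.37-fold (1.15 to 1.64), which did not pass (adjusted p = 0.0946). With shRNA 1 it was -0.08 ± 0.11 (adjusted p = 0.848). The call between hairpins was lost without any 1 of the shRNA 1 or shRNA 2 arrays (0.43 to 0.64). It was also lost with no detection filter (adjusted p = 0.089), with only the 2 hairpin groups fitted (0.0863) and with a replicate block (0.07). Leaving out an NS array repeated the fit of the 2 hairpin groups, since a single NS array adds nothing to the estimate of spread. That loss therefore does not show that the call depends on the NS levels. It was far from the threshold with the submitters' processed values (0.54, adjusted p = 0.000227), where the difference from NS also passed (0.45, adjusted p = 0.00158).

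**Figure D2:**
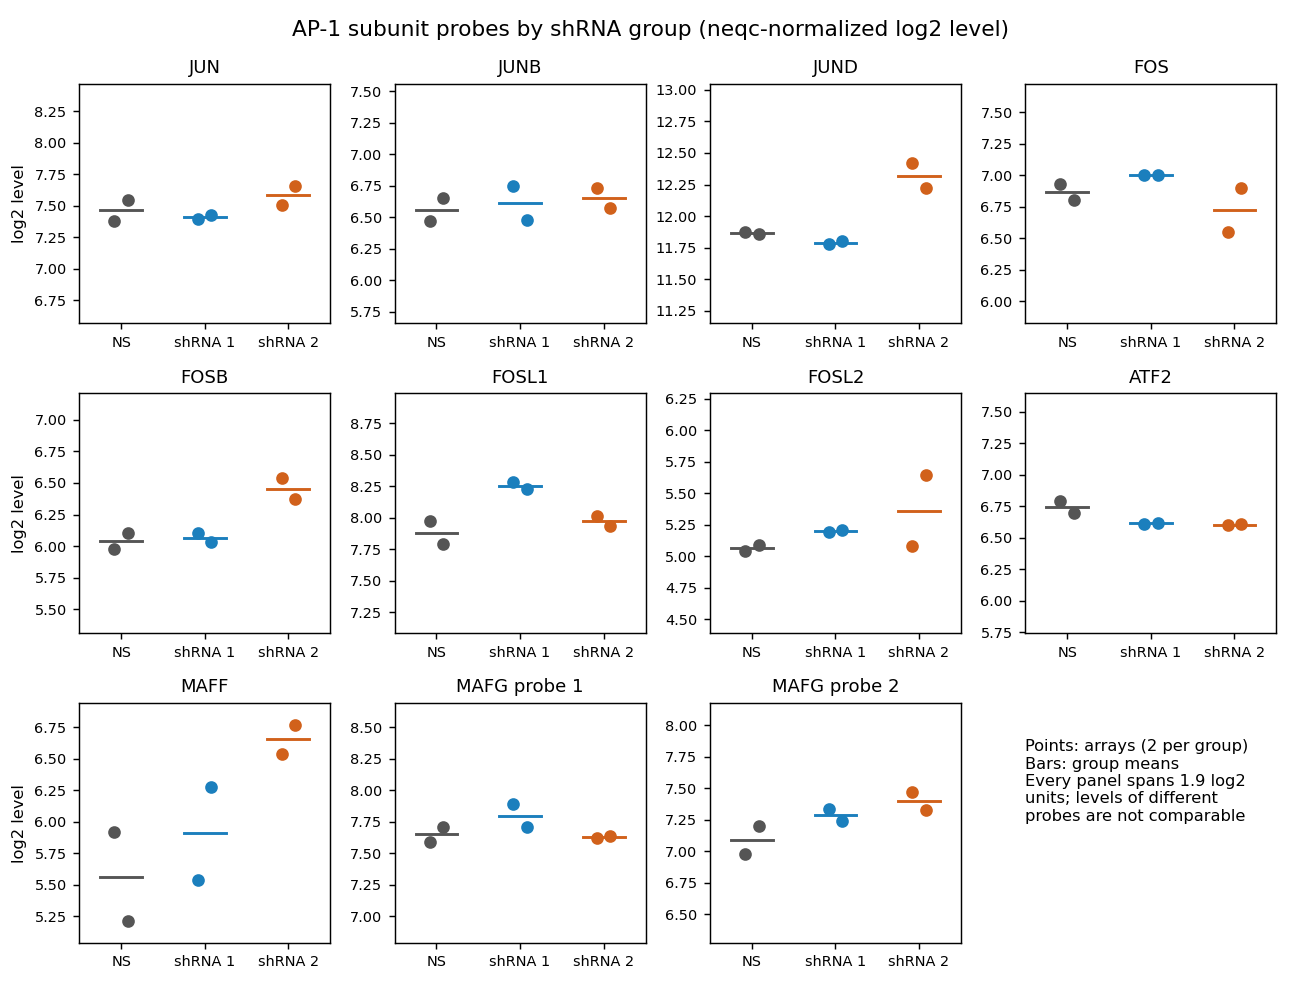
Log2 level of each tested AP-1 subunit probe on the 6 arrays, 2 points and a bar at the mean for each of NS shRNA, PEA15 shRNA 1 and PEA15 shRNA 2, with the same height of scale in every panel. JUND and FOSB stand higher on both shRNA 2 arrays than on the other 4, and FOSL1 and FOS on both shRNA 1 arrays. ATF2 stands higher on both NS arrays, and the 2 MAFF arrays of NS and of shRNA 1 lie far apart.

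The promoter windows of JUND and MAFF are shown because these genes had the largest differences of shRNA 2 from NS, neither of which passed. Among the family's matched windows, theirs hold a full cyclic AMP response element, the letters TGACGTCA bound by ATF2 and other ATF and CREB pairs. The windows to show were chosen with the levels known, and a link of these letters to the levels was not tested. FOSB, the other gene highest with shRNA 2, is shown beside them. The windows run from 250 bases before to 50 after a start in RefSeq (GRCh38.p14): chr19:18281573-18281872 on the minus strand, chr22:38201744-38202043 on the plus strand and chr19:45467746-45468045 on the plus strand. Capitals mark TGACGTCA, and all other letters are lower case.
JUND: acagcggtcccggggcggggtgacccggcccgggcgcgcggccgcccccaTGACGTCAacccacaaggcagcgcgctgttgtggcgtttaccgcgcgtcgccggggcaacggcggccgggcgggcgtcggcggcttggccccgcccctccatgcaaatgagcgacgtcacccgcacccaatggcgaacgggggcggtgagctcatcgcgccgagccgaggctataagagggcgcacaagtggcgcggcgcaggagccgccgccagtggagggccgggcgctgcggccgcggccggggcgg
MAFF: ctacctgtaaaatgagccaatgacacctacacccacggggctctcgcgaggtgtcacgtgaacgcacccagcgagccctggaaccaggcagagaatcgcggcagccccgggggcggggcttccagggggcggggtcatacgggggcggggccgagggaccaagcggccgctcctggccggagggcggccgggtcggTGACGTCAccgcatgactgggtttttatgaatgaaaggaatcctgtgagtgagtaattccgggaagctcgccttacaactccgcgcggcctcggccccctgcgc
FOSB: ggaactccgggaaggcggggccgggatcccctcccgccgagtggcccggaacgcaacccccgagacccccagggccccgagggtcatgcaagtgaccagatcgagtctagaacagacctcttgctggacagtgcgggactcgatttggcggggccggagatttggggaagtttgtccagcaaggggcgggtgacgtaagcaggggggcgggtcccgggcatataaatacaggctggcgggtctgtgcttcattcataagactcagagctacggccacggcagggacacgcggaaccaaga
RefSeq windows were matched for 8 of the 10 genes, 9 windows in all because MAFF had 2 starts. TGACGTCA was present in 2 of the 9, first base 200 bases before the JUND start and 54 before the first MAFF start, and in 1.85% of 35116 promoter windows searched on both strands. TGANTCA, a pattern wider than the classical AP-1 site, was present in 1 of the 9, FOSL2, against 7.71% of all windows. It allows any base in the middle, where the classical site has C or G, and the classical site was not counted apart. TGATGNAA, a core of the element used by ATF4 with a CEBP partner, was in 0 of the 9 and in 3.62% of all windows, and the CArG box of serum response factor in 0 of the 9 and in 1.29%. No 2 matches overlapped. A match is a description of these letters, and 1 without a match says nothing about a factor. Letters more than 250 bases before a start were not searched, so these counts do not cover sites further upstream.

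Among the FOS proteins, FOS measured 6.93 and 6.80 under NS, 7.0 on both shRNA 1 arrays, and 6.55 and 6.90 under shRNA 2. The 2 shRNA 2 arrays spread widely and overlapped with NS, and the shRNA 1 arrays lay above the other 4. Its differences were 0.13 ± 0.14 with shRNA 1 (limma adjusted p = 0.78), -0.14 ± 0.14 with shRNA 2 (adjusted p = 0.632) and -0.28 ± 0.14 between hairpins (95% confidence interval -0.59 to 0.04, adjusted p = 0.279). FOSB, an immediate early relative of FOS, was at 5.98 and 6.10 with NS, 6.10 and 6.03 with shRNA 1, and 6.54 and 6.37 with shRNA 2. NS and shRNA 1 overlapped, and both shRNA 2 arrays were higher than the other 4. The difference of shRNA 2 was 0.41 ± 0.11 from NS, or 1.33-fold (1.11 to 1.6, adjusted p = 0.122), and 0.39 ± 0.11 from shRNA 1 (adjusted p = 0.101). Neither passed, nor did either pass under any of 15 alternatives (adjusted p from 0.0898 to 0.36 and from 0.0741 to 0.316).

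FOSL1, which encodes FRA1, took another order, with its highest levels on the shRNA 1 arrays. It was at 7.97 and 7.79 with NS, 8.28 and 8.23 with shRNA 1, and 8.01 and 7.93 with shRNA 2. Both shRNA 1 arrays lay above the other 4, and NS and shRNA 2 overlapped. The shRNA 1 difference of 0.38 ± 0.11 from NS was 1.30-fold (1.09 to 1.55) and did not pass (limma adjusted p = 0.294), and the difference of shRNA 2 from shRNA 1 was -0.28 ± 0.11 (adjusted p = 0.181). Over 15 alternatives the first ranged from 0.28 to 0.46 (adjusted p from 0.0844 to 0.559). FOSL2, which encodes FRA2, was at 5.04 and 5.09 with NS, 5.19 and 5.21 with shRNA 1 and 5.08 and 5.64 with shRNA 2. Its shRNA 2 mean rested on 1 array, since the other shRNA 2 array lay within the range of the NS arrays. The shRNA 2 difference from NS was 0.30 ± 0.17 (adjusted p = 0.42), and 0.02 without PEA15 shRNA 2 replicate 2.

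ATF2 had the smallest spread between arrays of the same group among the tested probes of the family. Its levels were 6.79 and 6.70 with NS, 6.61 and 6.62 with shRNA 1 and 6.60 and 6.61 with shRNA 2, so that all 4 PEA15 hairpin arrays lay below both NS arrays and overlapped with each other. The differences from NS were -0.13 ± 0.10 (limma adjusted p = 0.677) and -0.14 ± 0.10 (adjusted p = 0.517), and the difference between hairpins was -0.01 (95% confidence interval -0.24 to 0.22). Its residual SD was 0.04, and 96.6% of tested probes had a larger one.

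MAFF had the largest spread of the family and, in the values as processed here, its largest differences in both comparisons of shRNA 2. The tested probe was at 5.92 and 5.21 with NS, 5.54 and 6.28 with shRNA 1, and 6.54 and 6.77 with shRNA 2, from raw intensities of 139 and 118, 126 and 165, and 176 and 202. The NS and shRNA 1 arrays overlapped, and both shRNA 2 arrays lay above the other 4. With shRNA 2 the level was 1.09 ± 0.28 higher than with NS, a 2.13-fold difference (95% confidence interval 1.34 to 3.36), without passing (limma adjusted p = 0.113). It was 0.75 ± 0.28 higher than with shRNA 1 (adjusted p = 0.179). The SD of 2 arrays was 0.50 for NS, 0.52 for shRNA 1 and 0.17 for shRNA 2. The residual SD was 0.43 against a median of 0.12 over tested probes, and 0.308% of tested probes had a larger one. The SE of 0.28 and the interval use limma's spread, which is drawn toward that of other probes. They are thus narrower than the residual SD of MAFF alone would give. With the submitters' processed values the shRNA 2 difference from NS was smaller, 0.49, and passed (adjusted p = 0.00724). The other 2 MAFF probes, detected on 0 and 1 of the 6 arrays, gave levels from 4.38 to 4.82 and no test.

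For MAFG, 2 probes annotated to different transcripts were tested. The brighter stood at 7.59 and 7.71 with NS, 7.89 and 7.71 with shRNA 1, and 7.62 and 7.64 with shRNA 2, and its largest difference was -0.16 between hairpins (limma adjusted p = 0.43). The other was at 6.98 and 7.20 with NS, 7.34 and 7.24 with shRNA 1, and 7.47 and 7.33 with shRNA 2. On this second probe both PEA15 hairpins lay above both NS arrays, by 0.20 ± 0.12 (adjusted p = 0.583) and 0.31 ± 0.12 (adjusted p = 0.233), where the first gave 0.15 and -0.01. The probes thus differed in which hairpin was higher, and neither passed. The last MAFG probe was detected on no array, at levels from 4.44 to 4.76.

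Relatives of these subunits from the same class of basic leucine zipper proteins were examined as a list of 18 genes that are not members. Of these, 9 were tested and 7 others had probes that did not pass the detection filter. This list and those below were chosen with earlier results of these data known, so their counts are not an unbiased sample. With shRNA 2 against NS, 3 of the 9 rose and 0 fell, beside 1.03% higher and 0.379% lower of all tested probes. Their median was 0.21 against -0.009 over all probes. With shRNA 1, 0 of 9 passed, beside 0.0152% of all tested probes, with a median of 0.02. ATF3, a stress-induced partner of JUN, was at 7.01 and 6.94 with NS, 7.24 and 7.30 with shRNA 1 and 8.79 and 8.77 with shRNA 2. It rose by 1.80 ± 0.10 with shRNA 2, or 3.48-fold (limma adjusted p = 0.000674), and by 1.5 ± 0.10 over shRNA 1 (adjusted p = 0.000955), and both calls held without any 1 array. ATF4, the transcription factor of the amino acid response, rose by 0.85 ± 0.10 (adjusted p = 0.0119). Other ATF4 probes gave 1.14 and -0.08. JDP2, a repressor that pairs with JUN, was at 5.79 and 6.04 with NS, 5.83 and 6.04 with shRNA 1 and 6.63 and 6.74 with shRNA 2, and rose by 0.77 ± 0.13 (adjusted p = 0.0403). The ATF4 call was lost without any 1 of the NS or shRNA 2 arrays (0.85 to 0.86), and so was that of JDP2 (0.64 to 0.9). The JDP2 call was also lost with only the NS and shRNA 2 groups fitted, a fit that leaving out a shRNA 1 array repeats. NFE2L2, which encodes the small MAF partner NRF2, was at 0.17 (adjusted p = 0.512).

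Immediate early genes, which are induced together with FOS and JUNB after stimulation, were next. Of 17 tested, 2 rose with shRNA 2 and 0 fell (limma), beside 1.03% and 0.379% of all tested probes, with a median of 0.05. With shRNA 1 and between hairpins 0 passed, beside 0.0152% and 2.95%, with medians of 0.08 and 0.04. KLF4, a transcription factor of epithelial differentiation, rose by 1.17 ± 0.15 with shRNA 2 (adjusted p = 0.016), from 5.37 and 5.47 to 6.43 and 6.76. A second KLF4 probe rose by 0.71 (adjusted p = 0.0301). CCN1, a matricellular protein gene, rose by 0.78 ± 0.11 (adjusted p = 0.0224), from 6.42 and 6.49 to 7.25 and 7.21. Both calls were lost without any 1 of the NS or shRNA 2 arrays (highest adjusted p = 0.131 and 0.152). EGR1, a zinc finger gene induced with FOS by growth factors, was at 0.22 with shRNA 1 and 0.04 with shRNA 2 (adjusted p = 0.609 and 0.919), and SRF, the factor that drives FOS transcription, at -0.19 and -0.01.

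Genes known as AP-1 targets numbered 16 tested of 26 listed, and 8 others, among them MMP1, MMP3, MMP10 and IL6, were on the array without passing the detection filter. With shRNA 2 against NS, 3 rose and 0 fell, beside 1.03% and 0.379% of all tested probes. The median was 0.25, with 10 of 16 above 0, beside 48.3% of all tested probes. With shRNA 1, 0 of 16 passed (limma), beside 0.0152% of all tested probes. The median there was 0.24, with 14 of 16 above 0, against 49.5% of all tested probes above 0. Between hairpins 1 of 16 was higher and 1 lower, beside 1.74% and 1.2% of all tested probes, with a median of -0.08. VEGFA, the angiogenic growth factor, rose by 0.88 ± 0.12 with shRNA 2 (adjusted p = 0.0211), from 6.81 and 7.03 to 7.90 and 7.70, and its second probe by 0.65. The urokinase gene PLAU rose by 0.78 ± 0.13 (adjusted p = 0.0322), from 9.0 and 8.90 to 9.86 and 9.60, and the laminin subunit LAMB3 by 0.69 ± 0.12 (adjusted p = 0.0445). VEGFA was 0.98 higher with shRNA 2 than with shRNA 1 (adjusted p = 0.0111). MMP7, a secreted metalloproteinase, was 0.83 ± 0.10 lower (adjusted p = 0.0098), at 4.86 and 4.91 against 5.71 and 5.72. Under NS it was at 5.13 and 5.19. Its changes from NS were 0.55 with shRNA 1 and -0.28 with shRNA 2, and neither passed (adjusted p = 0.201 for each). That probe was not detected on 1 of the 2 shRNA 2 arrays, so its level there lies near background and the size of the difference is uncertain. The dimmer MMP7 probe differed by -1.12 between hairpins (adjusted p = 0.0189), and by 1.30 and 0.18 from NS. PLAU, LAMB3 and VEGFA lost the call against NS without any 1 of the NS or shRNA 2 arrays. PLAU and LAMB3 also lost it with only the NS and shRNA 2 groups fitted, a fit that leaving out a shRNA 1 array repeats. The VEGFA and MMP7 calls between hairpins were lost without any 1 of the shRNA 1 or shRNA 2 arrays (highest 0.0808 and 0.0764).

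**Figure D3:**
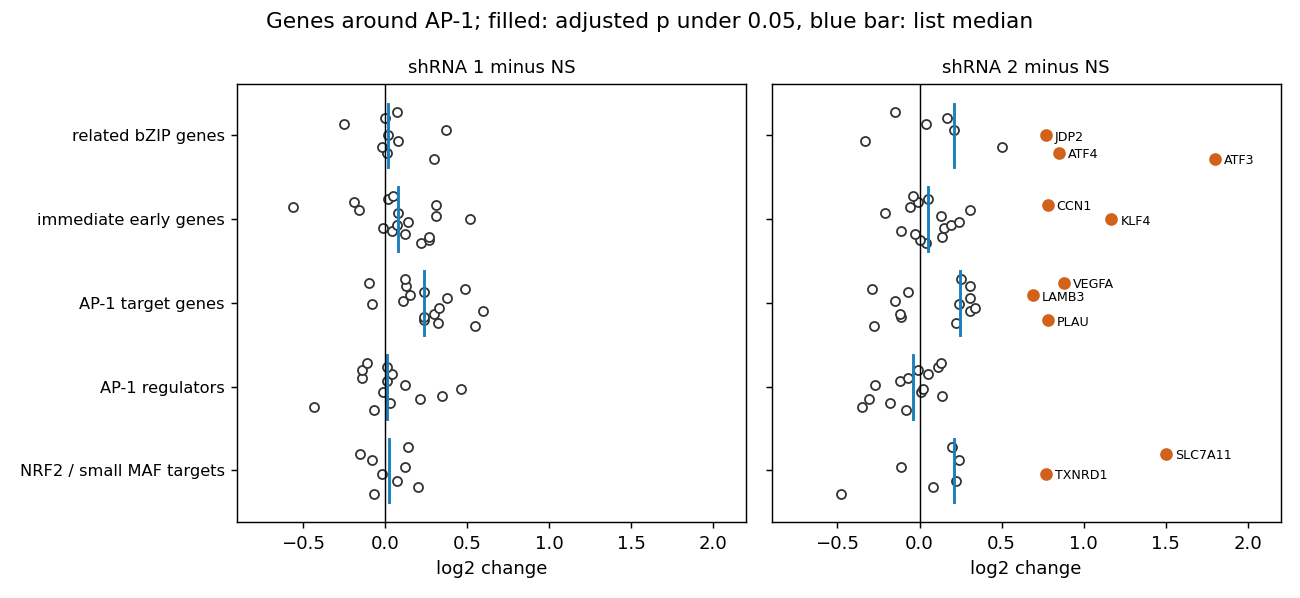
Log2 change of every tested gene of 5 lists around AP-1 with shRNA 1 and with shRNA 2 against NS shRNA, filled where the adjusted p was under 0.05 and with a bar at the list median. No gene is filled with shRNA 1, and with shRNA 2 the filled genes run from LAMB3 at 0.69 to ATF3 at 1.80, all higher.

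Kinases, transcription factors and ubiquitin ligases that act on AP-1 subunits gave 0 of 14 past the test in each of the 3 comparisons (limma). The shares of all tested probes were 0.0152%, 1.41% and 2.95%, and the medians of the 14 were 0.01, -0.04 and -0.00. RPS6KA3, a kinase downstream of ERK, was at 0.35 ± 0.11 with shRNA 1 (adjusted p = 0.308), the ternary complex factor ELK3 at 0.46 ± 0.18 (adjusted p = 0.394) and MAPK8, which encodes JNK1, at -0.43 ± 0.17 (adjusted p = 0.406). A second MAPK8 probe gave 0.09, and RPS6KA3 probes gave 0.25 and -0.18. RPS6KA1, a related ERK-activated kinase, was at -0.52 ± 0.15 between hairpins (adjusted p = 0.101). Of 8 tested antioxidant genes, the targets of NRF2 with small MAF partners, 2 rose with shRNA 2 and 0 with shRNA 1. The shares higher among all tested probes were 1.03% and 0.0152%, and the medians of the 8 were 0.21 and 0.02. SLC7A11, a cystine transporter subunit that ATF4 is also known to control, rose by 1.5 ± 0.15 (adjusted p = 0.00681), from 5.05 and 5.01 to 6.48 and 6.58. Its raw intensities under NS were 111 and 114, near background, and it was detected on 5 of the 6 arrays. The size of its rise is thus uncertain, from 0.61 to 1.55 over 15 alternatives. TXNRD1, a thioredoxin reductase, rose by 0.77 ± 0.11 (adjusted p = 0.0197), from 10.00 and 10.02 to 10.86 and 10.70. NQO1, a quinone reductase and standard NRF2 readout, was at -0.48 with shRNA 2 (adjusted p = 0.0678). Both calls were lost without any 1 of the NS or shRNA 2 arrays (highest adjusted p = 0.0883 and 0.145).

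The genes whose levels over the 6 arrays were most like those of JUND were sought among 994 probes detected on all arrays whose group means spanned at least 0.5. They were GCNT3, a mucin-type glycosyltransferase (Pearson r = 0.995 over 6 arrays), VHRT (0.995), the iron-binding secreted protein gene LCN2 (0.993), the signalling adaptor GRB10 (0.991) and DHCR7, the last enzyme of cholesterol synthesis (0.990). GCNT3 stood at 5.81 and 5.71 with NS, 5.61 and 5.65 with shRNA 1, and 6.81 and 6.55 with shRNA 2, high on the same 2 arrays as JUND. On the NS and shRNA 1 arrays the raw intensities were 128 to 136 for GCNT3 and 113 to 119 for VHRT. These lie near background, so the size of their differences is uncertain. Of the 994 probes, 187 had r above 0.9. The points share groups and normalization, and the value is a description. Between hairpins DHCR7 differed by 0.54, close to the value of JUND, without passing (limma adjusted p = 0.0508).

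**Figure D4:**
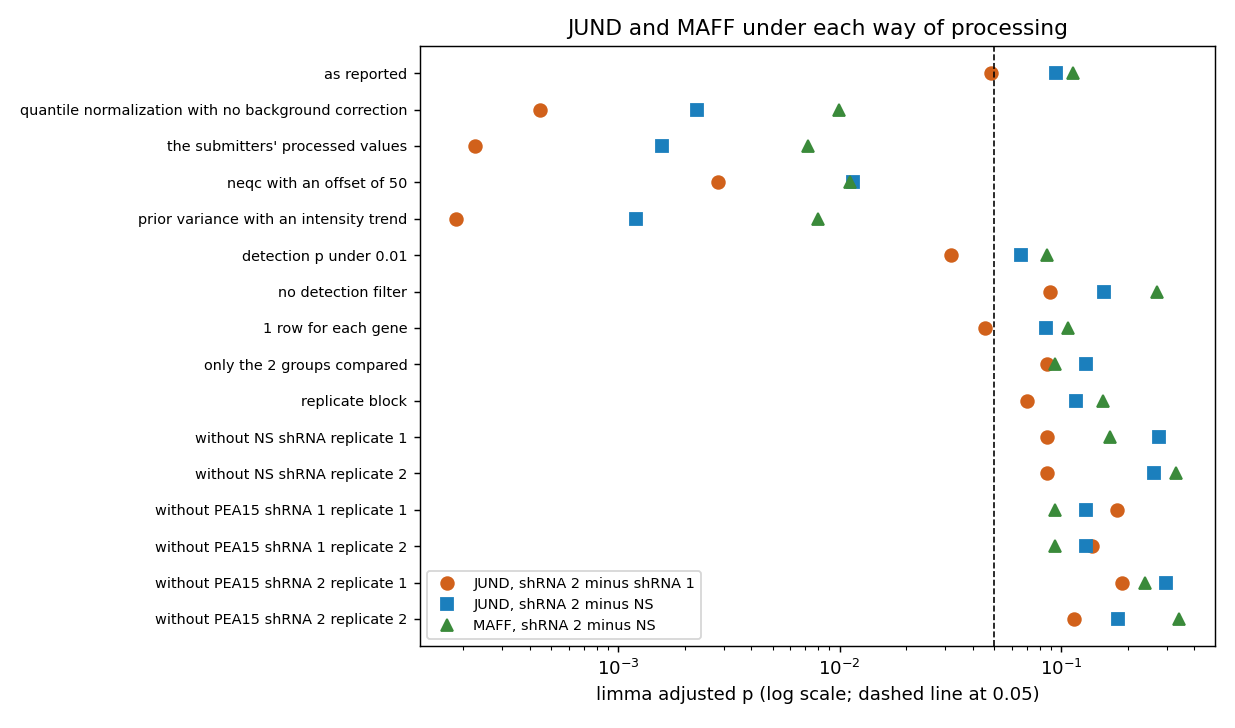
Adjusted p on a log scale for JUND in 2 comparisons and MAFF in 1, as reported and under 15 other ways of processing, with a dashed line at 0.05. Without background correction, with the submitters' values, with an offset of 50 or with a prior that follows intensity all 3 lie below the line, and without any 1 array all 3 lie above it.

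The shRNA 2 difference of JUND from NS lay between 0.35 and 0.56 over 15 alternatives and passed under 4 of them: no background correction, the values as the submitters processed them, an offset raised to 50 and a prior that follows intensity (limma adjusted p from 0.00121 to 0.0115 in these 4). MAFF passed against NS under the same 4 (adjusted p from 0.00724 to 0.0111), with changes from 0.49 to 1.09 there and from 0.73 to 1.44 when single arrays were left out. No other subunit passed in any comparison under any of the 15 alternatives.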

How the data were processed

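Total RNA of HCT116 cells was turned into biotinylated cRNA and read on Illumina arrays, per the labels' protocols. The deposited table holds for each of 47323 probes and 6 arrays a linear signal intensity with its detection p-value, per the file headers. The authors' second table holds processed log2 values made with lumi, per the submitters' processing notes; by its values it is quantile normalized, and the sources used here give no background step.

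The neqc method (limma 3.58.1, R 4.3.3) corrected and normalized the signals with an offset of 16 before log2, which understates folds of dim probes. A probe was kept where 1 group or more had a detection p under 0.05 on its 2 arrays: 19781, each tested as its own row. A linear model with 3 group means over all 6 arrays (3 residual and 4.67 prior degrees of freedom) gave two-sided moderated tests, adjusted by Benjamini-Hochberg over all 19781 with a threshold of 0.05. The ± values are limma standard errors. List genes are shown by their brightest kept probe. The test was tried on simulated data.

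Groups and replicate numbers came from sample titles. Gene names came from the platform annotation: 30113 probes had 1 symbol, 8 several and 17202 none listed. Members, lists, tests and alternatives were chosen with earlier results of these data known. Every member probe and PEA15 were named; for lists, genes past the threshold in any comparison (up to 6), or else the 4 with the smallest p; the 5 genes most like JUND were named by correlation, and EGR1, SRF, NFE2L2 and NQO1 after their values were seen. Promoter windows are from RefSeq, GRCh38.p14. The precision is limited by 2 arrays a group. Alternatives changed the background correction, offset, prior, filter, rows, samples fitted, replicate block and each array left out. For any comparison, leaving out an array of the third group repeats the fit of only the 2 groups, so the alternatives are not all distinct.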

Additional observations from a re-analysis of the deposited data

Results flagged for a closer look

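JUND differed between the PEA15 hairpins: its level with shRNA 2 was 0.53 higher (log2) than with shRNA 1 by the direct test of that difference (limma adjusted p = 0.0485), while its differences from NS shRNA were 0.46 and -0.08 and neither passed. PEA15 was at -0.38 in the same comparison (adjusted p = 0.129, and under 0.05 in 4 of 15 alternatives), and ATF3 and ATF4 rose in it by 1.5 and 0.84. Other ATF4 probes gave 1.28 and -0.07 in it. The ATF4 call was lost without any 1 of the shRNA 1 or shRNA 2 arrays (0.78 to 0.9). The part of PEA15, ATF3 and ATF4 in the JUND difference was not tested.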

How the results depend on the processing

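Calls over all probes moved widely with the processing. With shRNA 1 against NS shRNA, 3 probes passed as reported (limma), and 153 with quantile normalization alone (82 higher), 159 with the submitters' processed values (84 higher), 69 with an offset of 50 (42 higher), 135 with a trended prior (71 higher), and 0 without the detection filter, in a fit of these 2 groups and with the replicate block (unadjusted p under 0.05 for 3701, 2155 and 2334). For shRNA 2 against NS the count of 278 (203 higher) became 1089 (608 higher), 1081 (607 higher), 897 (526 higher), 978 (549 higher), 482 with the stricter filter, 108 with none, 157 with only the 2 groups and 145 with the replicate block. Between hairpins 583 (345 higher) became 2002 (1039 higher), 2045 (1063 higher), 1721 (897 higher), 1903 (999 higher), 941, 264, 285 and 382 in the same order. Without 1 array the counts ranged from 0 to 0, from 17 to 157 and from 34 to 285.

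Probes of AP-1 subunits that passed numbered 0, 0 and 1 in the 3 comparisons. They were 2 with shRNA 2 against NS and 2 between hairpins under quantile normalization alone, the submitters' values, the larger offset and the trended prior, in each case JUND and MAFF. Between hairpins they were 0 with no detection filter, with only the 2 groups, with the replicate block (adjusted p of JUND = 0.07) and without any 1 array (from 0 to 0). The cause was not tested. Same-numbered arrays of different groups deviated together with r of -0.0148, 0.0473 and 0.0836 across probes, and the labels give the numbers no shared batch, so they share only a number.

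Changes of direction among AP-1 subunits arose only when 1 array was left out, in 13 of 492 checks, none past the threshold. With shRNA 1 these touched JUN (from -0.14 to 0.04), JUNB (-0.08 to 0.19), FOSB (-0.04 to 0.08) and MAFF (-0.03 to 0.71), with shRNA 2 FOS (-0.32 to 0.03) and the brighter MAFG probe (-0.07 to 0.05), and between hairpins JUNB (-0.10 to 0.17), FOSL2 (-0.12 to 0.43) and ATF2 (-0.01 to 0.00). FOSB, FOSL2, MAFF, MMP7, KLF4, JDP2, SLC7A11, GCNT3 and VHRT are among the probes near background, where the offset sets the size of a fold. With shRNA 2 against NS, KLF4 ranged from 0.51 to 1.34 and JDP2 from 0.37 to 0.9 over 15 alternatives.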
